A study of Mus musculus with 12 samples.

Results

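The nuclei described here were sought as cortical interneurons with transcripts of Cnr1, the type 1 cannabinoid receptor, and of Adarb2. Adarb2 is an RNA-editing-like protein found in interneurons born in the caudal ganglionic eminence (CGE). They were chosen by raw UMI counts (unique molecular identifiers, 1 per captured transcript), and 326 of 71922 kept nuclei met every condition. A barcode was kept if it held at most 12000 UMIs and at most 1% mitochondrial UMIs. A member then had at least 5 UMIs of Cnr1, at least 2 of Adarb2 and at least 2 of Gad1 and Gad2 together, the genes for the GABA-synthesizing enzymes. It had at most 1 UMI each of Vip, Lamp5, Sst and Slc17a7, which mark other interneurons and excitatory neurons. The members made up 326 of 9683 GABA nuclei, defined as kept nuclei with at least 2 UMIs of Gad1 and Gad2 and at most 1 of Slc17a7. A group of 29 members was low in Adarb2 and high in striatal markers, as given below.

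Nuclear RNA was sequenced from the cortices of 12 mice at postnatal day 21. There were 6 WT and 6 Het animals, and each genotype had 3 of either sex. Het mice carry 1 copy of a frameshift allele of Myt1l (label MYT1L S710fsX), a zinc finger transcription factor of neurons, on a C57BL/6 background. Pups of both genotypes were injected at birth with a mixture of AAV9 carrying hyPB and AAV9 carrying the tdTomato construct H2b-tdT-SRT. These are the reagents of Calling Cards, a method that records the binding of proteins to DNA. The WT controls had received the viruses too. Cortices were flash frozen, and all libraries were prepared with a combinatorial indexing kit on the same plates. The kept nuclei of an animal held between 18906781 and 45613151 UMIs, and the members of an animal between 112523 and 362567. No barcode was shared by any of the 66 pairs of animals. Members numbered 17 to 47 per animal, 140 in WT and 186 in Het.

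In the adult cortex, CGE-derived interneurons that express Cnr1 and the peptide cholecystokinin (Cck) form baskets around the somata of pyramidal cells. Their terminals hold the cannabinoid receptor at high density. Postsynaptic cells release the endocannabinoid 2-AG, made by diacylglycerol lipase, which acts on this presynaptic receptor and lowers GABA release until monoacylglycerol lipase (Mgll) breaks it down. Surveys of cortical cell types call many of these neurons the Sncg type, after gamma-synuclein. Some of them also make VGLUT3 (Slc17a8), a vesicular glutamate transporter.

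Cnr1 and Adarb2 chose the members, so their levels are given as a description. A member held a median of 8 Cnr1 UMIs (range 5 to 52) and 142 Adarb2 UMIs (range 2 to 466). Its median total was 7158 UMIs and 2626 genes, against a median of 4887 UMIs in the other GABA nuclei. A fixed minimum of Cnr1 UMIs is met more easily by nuclei with more UMIs, so the members are the deeper part of these neurons. Of the 326, 217 held over 6000 UMIs, the upper limit in the published processing, and 50 (15.3%) met all of the limits used there. The 217 nuclei just below the threshold, with 3 to under 5 Cnr1 UMIs and all other conditions met, had a median of 5425 UMIs and 56.9 Adarb2 UMIs. The 116 members just above it, with 5 to under 7, had medians of 5863 and 91.5. A further 56 nuclei failed only the limit on Vip, 8 only that on Lamp5 and 3 only that on Slc17a7.

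The name Sncg type was not borne out by Sncg itself. No member held a Sncg UMI (0 of 326 nuclei, which by the limit of 3 counts allows a share of up to 0.920%, or 1.27 CPM, that is counts scaled to a fixed UMI total for the pooled members). The gene was hardly measured in these libraries at all, with 66.3 UMIs over all kept nuclei (0.170 CPM). Other genes of the type were present. Cck, on chromosome 9 (121489824 to 121495694, GRCm38/mm10), reached 33.8 CPM in the pooled members against 3.25 CPM in the other GABA nuclei. It was higher than in the other GABA nuclei of the same animal in 12 of 12 animals, with a lowest value of 6.39, a median of 35.7 and a highest of 58.2 CPM. A Cck UMI was found in 63 of 326 members (19.3%, exact 95% interval 15.2 to 24.0), in 5.74% of Vip nuclei and in 0.581% of 2064 oligodendrocyte nuclei, which should lack it. The median depths of these sets were 7158, 4872 and 2654 UMIs. With nuclei under 2000 UMIs left out and the rest thinned to 2000 UMIs, the shares were 7.98%, 2.13% and 0.332%. That kept all 326 members, 328 Vip nuclei and 1805 oligodendrocyte nuclei. A nucleus without a UMI is not shown to lack the transcript. The nuclei are therefore called Cnr1/Adarb2 interneurons below. Vip nuclei here are the 331 GABA nuclei with at least 3 Vip UMIs that also passed the Adarb2, Lamp5 and Sst conditions.

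Some genes of CGE identity were higher in the members than in the other GABA nuclei, which include striatal neurons, in every animal. The list of 15 such genes held 12 with at least 10 counts in the members. Of the list, 6 were above the other GABA nuclei in 12 of 12 animals, namely Cck, Htr3a, Npas1, Nr2f2, Cxcl14 and Reln, and none was below in all animals. Over all 10800 genes with at least 10 counts in the members, 2.56% were higher and 5.42% lower in 12 of 12 animals. Over the 2815 more abundant genes tested between the genotypes below, the shares were 8.06% and 10.6%, against which the counts of this and the next lists can be read. These differences describe nuclei that the rule chose by related genes and are given without a test. Htr3a, the ionotropic serotonin receptor that marks CGE interneurons, was at 42.2 CPM against 4.22 CPM, but at 39.7 CPM in Vip nuclei. At 2000 UMIs a nucleus, 7.36% of members and 6.71% of Vip nuclei held a Htr3a UMI, and 9.82% and 8.23% one of Cxcl14. Npas1, a transcription factor that limits interneuron numbers, was at 115 CPM against 12.7 CPM, and 46.0% of members held a UMI of it against 0.436% of oligodendrocyte nuclei. Reln, an extracellular matrix protein, was at 1180 CPM in members, 525 CPM in other GABA nuclei and 126 CPM in Vip nuclei. It was found in 79.3% of the 29 members low in Adarb2 and in 73.1% of the other 297, so it does not separate these. Prox1, a CGE transcription factor, went the other way against Vip nuclei, at 105 CPM in members and 284 CPM in Vip nuclei, and was below them in 12 of 12 animals. A Prox1 UMI was also found in 36.4% of oligodendrocyte nuclei, so the gene does not separate neurons from glia. Of 22 interneuron transcription factors, Nr2f2, Npas1, Npas3, Dlx6os1 and Tcf4 were higher and Sox6, Satb1 and Meis2 lower than in other GABA nuclei in 12 of 12 animals. Npas3 was at 5964 against 1095 CPM. Genes of interneurons from the medial ganglionic eminence were low. Sox6 was at 23.7 CPM against 615 CPM, Lhx6 had 2 counts in all members, and Pvalb had none. None of these levels is set against Lamp5 nuclei. Those are the 56 GABA nuclei with at least 3 Lamp5 UMIs that also passed the Adarb2, Vip and Sst conditions.

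By the ratio of mean CPM to the other GABA nuclei, among genes at 50 CPM or more and with the genes of the rule left out, the 15 leading genes opened with Slc17a8 (ratio 31.6), Megf10 (22.5), Frem1 (21.8), Cadps2 (18.3) and Col14a1 (12.4). Megf10 is a cell surface receptor, Frem1 and Col14a1 are matrix proteins, and Cadps2 primes dense-core vesicles, which carry peptides such as cholecystokinin. Cadps2 was at 1586 CPM in members and 185 CPM in Vip nuclei. Col25a1, a transmembrane collagen, was at 2188 CPM against 152 CPM in Vip nuclei and was higher in 12 of 12 animals. Of the 15, Gm48262, Gm48261 and Gm48259 lie inside Adarb2 on its strand (chromosome 13, 8202866 to 8768747, GRCm38/mm10). Reads from them cannot be told apart from Adarb2 introns, which chose the nuclei.

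**Figure D1:**
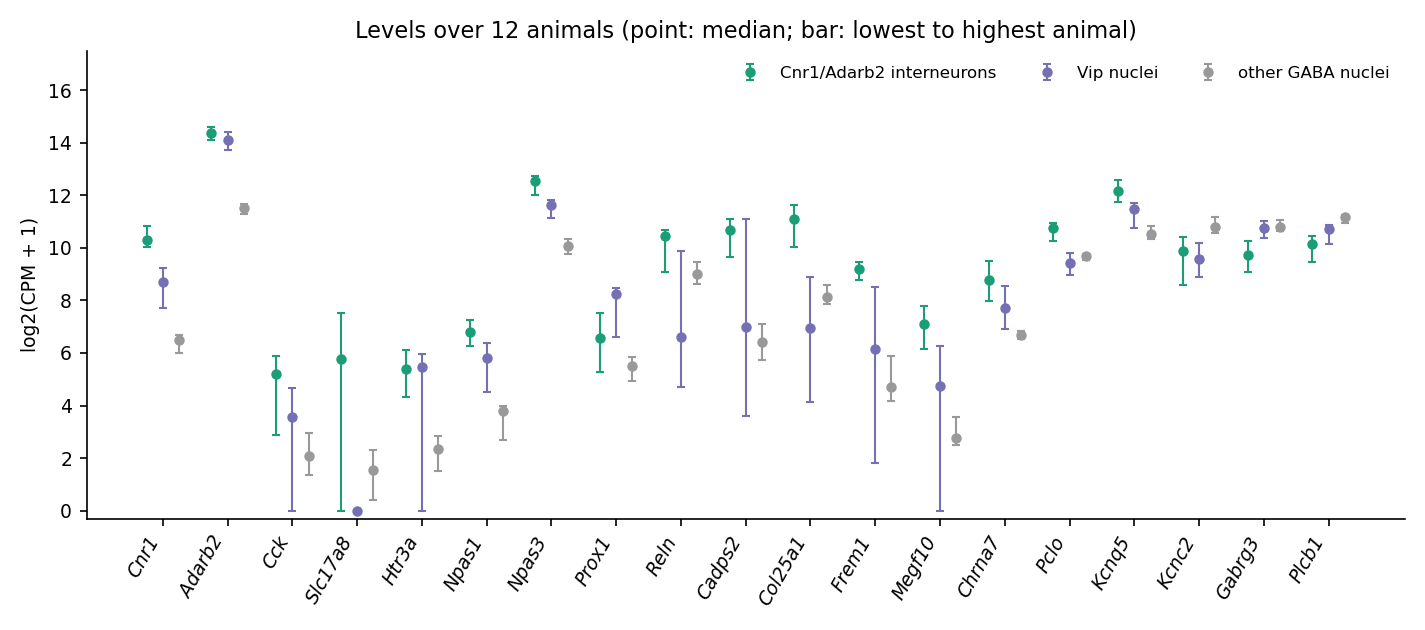
Levels of 19 genes as log2(CPM + 1) over 12 animals in Cnr1/Adarb2 interneurons, Vip nuclei and other GABA nuclei, with points at the median and bars from the lowest to the highest animal. Cnr1 and Adarb2 chose the nuclei. Slc17a8 is at 0 in all Vip nuclei, while Kcnc2, Gabrg3 and Plcb1 lie below the other GABA nuclei in all animals.

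Transmission genes were set out the same way, as descriptions of the members against the other GABA nuclei, a mixture of cortical and striatal types. Of 12 other endocannabinoid genes, Dagla (diacylglycerol lipase alpha) and Plcb1 (phospholipase C beta 1), which act in the cell that makes 2-AG, were lower in 12 of 12 animals. Plcb1 was at 1103 CPM against 2266 CPM and Dagla at 12.1 CPM against 36.2 CPM. Mgll, which degrades 2-AG at the terminal, was at 114 CPM against 78.9 CPM and higher in 11 of 12 animals. Faah and Cnrip1, which degrades anandamide and binds the receptor respectively, were close to the other GABA nuclei, at 30.8 against 30.4 CPM and at 74.9 against 79.1 CPM.

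Among 21 glutamate receptor genes, 11 were lower in 12 of 12 animals and 3 were higher. The lower genes included the AMPA receptor subunits Gria1 (844 against 1888 CPM) and Gria4 (1096 against 1818 CPM) and the metabotropic receptor Grm5 (1273 against 2666 CPM). The kainate receptor subunit Grik2 was higher, at 4602 against 2808 CPM, and so was the delta receptor Grid1. Of 17 genes of GABA receptors, 5 were lower in 12 of 12 animals, among them Gabrg3 (841 against 1874 CPM). The higher ones were Gabra2 (469 against 286 CPM), Gabrb1 and the scaffold Gphn.

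Of 26 receptors for serotonin, acetylcholine and peptides, 5 were higher and 2 lower in 12 of 12 animals. Chrna7, the alpha7 nicotinic subunit, was at 473 CPM in members, 210 CPM in Vip nuclei and 102 CPM in other GABA nuclei. Htr2c and the muscarinic receptor Chrm3 were also higher than in other GABA nuclei in 12 of 12 animals. Oprd1, the delta opioid receptor, was lower, at 4.65 against 45.6 CPM. Of 32 genes of the release site, 5 were higher and 6 lower in 12 of 12 animals. Pclo (piccolo) was at 1685 CPM against 805 CPM, and Erc1, another scaffold of the active zone, at 387 CPM against 245 CPM. Of 26 potassium and HCN channel genes, 5 were higher and 5 lower. Kcnq5, a subunit of the M-type potassium current, was at 4811 against 1476 CPM. Kcnc2, of the fast delayed rectifier of fast-spiking cells, was lower at 931 against 1822 CPM. Of 44 adhesion genes, 7 were higher and 8 lower in 12 of 12 animals, with Nrxn3 at 23604 against 10724 CPM and Il1rapl2 at 86.7 against 800 CPM. Of 13 genes of immature neurons, Stmn2 was higher in 12 of 12 animals (125 against 61.5 CPM), and of 9 GABA handling genes the chloride transporter Slc12a5 was lower (79.3 CPM in the members).

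The members were not uniform. A Slc17a8 UMI was found in 44 of them (13.5%, exact 95% interval 9.98 to 17.7), in 0 of 331 Vip nuclei (which by the same limit of 3 counts allows a share of up to 0.906%) and in 0.388% of oligodendrocyte nuclei. Slc17a8 lies on chromosome 10 (89574020 to 89621253, GRCm38/mm10). Among members with at least 20 Adarb2 UMIs, the 43 nuclei with a Slc17a8 UMI were set beside the 254 without one, as a description. Nuclei with the transporter had more Frem1 (1523 against 482 CPM), Col25a1 (5818 against 1681 CPM) and Cck (60.6 against 31.2 CPM). They had less Prox1 (17.3 against 131 CPM), Reln (421 against 1355 CPM), Kit (28.8 against 122 CPM) and Htr3a (20.2 against 50.3 CPM). Ndnf, a gene of layer 1 neurogliaform cells, was listed at 0 in the first set and at 54.7 CPM in the second. The first set was deeper, with a median of 8444 UMIs against 7111. It also had less Erbb4 (5265 against 9698 CPM), Cntnap2 (4247 against 7638 CPM) and Cntn5 (778 against 2028 CPM), which return in the genotype comparison. The 43 nuclei were 14 of WT and 29 of Het, and the 254 were 114 and 140. Within WT alone Erbb4 was at 5657 against 10810 CPM, Cntnap2 at 4145 against 8877 CPM and Cntn5 at 1037 against 2519 CPM. Within Het alone they were at 5077 against 8791, 4297 against 6626 and 653 against 1628 CPM. Absence of a UMI does not show that a nucleus lacks Slc17a8, so the second set holds an unknown number of the same kind.

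A smaller group of members went against the label. In 29 of 326 nuclei (8.90%; 12 in WT and 17 in Het) Adarb2 had under 20 UMIs, with a median of 3. These held a median of 41 UMIs over 6 markers of striatal projection neurons (Drd1, Drd2, Ppp1r1b, Rgs9, Pde10a and Adora2a), against 6 UMIs in the other 297. At least 15 such UMIs were found in 24 of the 29 nuclei and in 40 of the 297. In the 297, Pde10a made up 955 of the 974 CPM of these markers. Rgs9, a striatal regulator of G protein signalling, was at 915 CPM against 11.5 CPM, and Meis2, a striatal transcription factor, at 1237 CPM against 8.27 CPM. Npas1 was listed at 0 in the 29 nuclei and Adarb2 was at 806 CPM. Every animal had 1 to 6 of these nuclei, with the most, 6 of 21 members, in Het female 2. The share of members and the gene counts are given below with and without them. The other 297 nuclei also held markers of the Lamp5 type, with a Kit UMI in 100 and a Ndnf UMI in 30. The Lamp5-type markers summed to 156 CPM in the 297, 139 CPM in other GABA nuclei and 198 CPM in Vip nuclei.

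**Figure D2:**
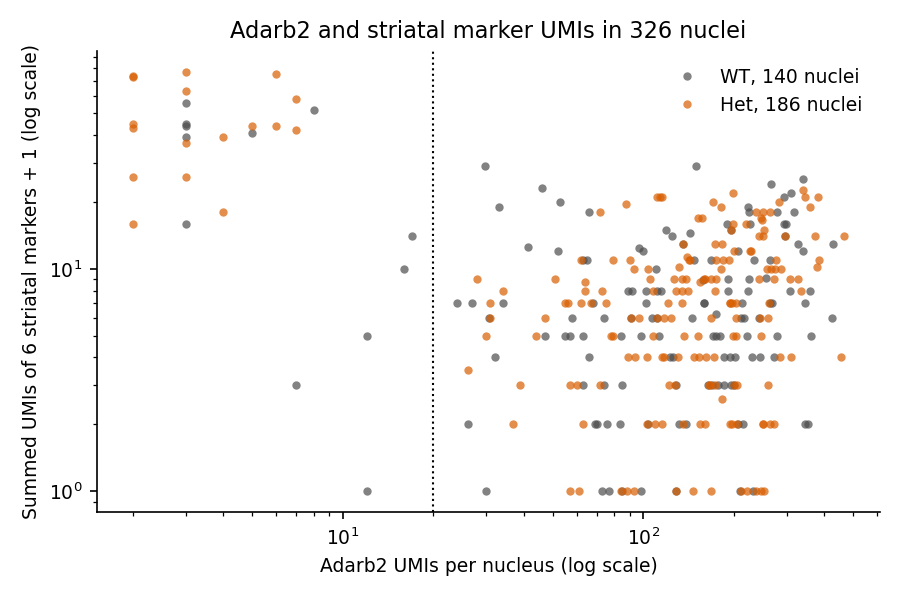
Each of the 326 nuclei by its Adarb2 UMIs (x axis, log scale) and its summed UMIs of 6 striatal markers plus 1 (y axis, log scale), coloured by genotype, with a dotted line at 20 Adarb2 UMIs. The 29 nuclei left of the line have a median of 41 striatal UMIs and the 297 right of it a median of 6.

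The first genotype comparison asks whether the members made up as large a share of the nuclei in Het as in WT cortex. The members made up 3.39% ± 0.629 (SD, n = 6) of the GABA nuclei in WT and 3.37% ± 0.651 in Het. By animal, WT values ran from a lowest of 2.71% over a median of 3.38% to a highest of 4.37%, and Het values from 2.44% over 3.32% to 4.47%. The groups overlapped over most of their range. The difference of -0.029 percentage points (SE 0.370) did not pass an exact two-sided permutation test over 924 relabellings (p = 0.935, 6 animals each). Without the nuclei under 20 Adarb2 UMIs the difference was -0.0421 points (exact permutation p = 0.933, n = 6 each). In a further check, nuclei under 4000 UMIs were left out of members and GABA nuclei alike, and the rest were thinned to 4000. Of 300 members at that depth, 137 still met the rule. The difference was then -0.431 points (3.04% ± 1.47 in WT, 2.61% ± 0.363 in Het; exact permutation p = 0.593, n = 6 each). Of all kept nuclei, the members were 0.435% ± 0.0785 in WT and 0.473% ± 0.0865 in Het (exact permutation p = 0.455, n = 6 each). The GABA nuclei, which include striatal neurons, were 12.9% ± 1.77 of kept nuclei in WT and 14.1% ± 1.08 in Het (exact permutation p = 0.169, n = 6 each). A share of GABA nuclei therefore also depends on the number of other GABA nuclei. The single-animal intervals were wide, for example 2.17% to 5.85% of GABA nuclei in WT male 1 with 17 members (exact 95% binomial, counting error only). In males the Het mean was 0.263 points above the WT mean and in females 0.321 below (exact permutation p = 0.4 and 0.8, with 0.1 the smallest that 3 against 3 allows), so neither sex could have passed by itself.

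**Figure D3:**
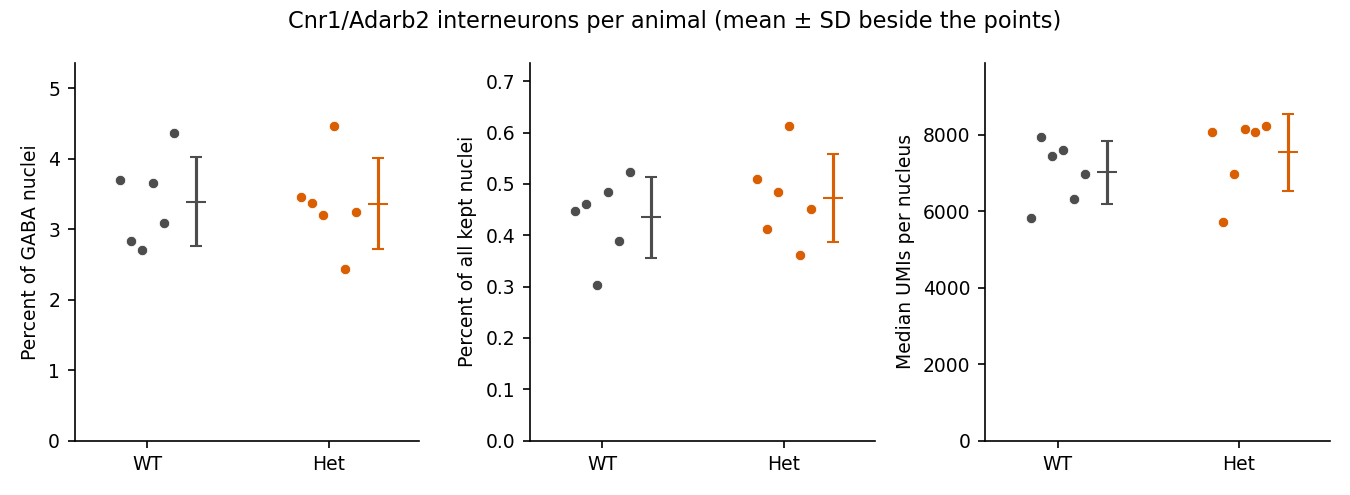
Cnr1/Adarb2 interneurons per animal as a percentage of GABA nuclei, as a percentage of all kept nuclei, and by the median UMIs of a nucleus, in WT and Het. Points are animals (6 per genotype) with the mean ± SD beside them, and WT and Het overlap in all 3 panels.

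Depth and markers of other classes were compared before the genes. The median UMIs of a member were 7017 ± 814 (SD) in WT and 7539 ± 1005 in Het (exact permutation p = 0.316, n = 6 each). Markers of other classes summed to 1729 ± 344 CPM in WT and 2157 ± 647 CPM in Het (exact permutation p = 0.175, n = 6 each). Het female 2, which had the most nuclei low in Adarb2, was the highest at 3345 CPM, and without it the difference was 191 CPM in place of 428. Most of this sum came from the striatal markers, at 901 to 1579 CPM in WT and 948 to 2728 CPM in Het. In members with at least 20 Adarb2 UMIs, Pde10a alone made up 955 of the 974 CPM of these markers. It was found in 90.2% of those nuclei, so the sum does not measure striatal RNA alone. In Vip nuclei the striatal markers were at 1810 CPM. The 9 excitatory markers summed to 155 to 284 CPM in WT and 271 to 345 CPM in Het, and without Camk2a, which also comes up among the genes below, to 38.9 to 81.1 and 41.8 to 81.7 CPM. The Lamp5-type markers summed to 62.2 to 185 CPM in WT (median 103 CPM) and 66.7 to 256 CPM in Het (median 201 CPM), and their part in the gene results was not tested. Astrocyte, oligodendrocyte, OPC and microglia markers overlapped between the genotypes.

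The second comparison asks which genes differed between Het and WT in these interneurons, on counts summed per animal. Of 2815 genes tested with edgeR's quasi-likelihood test, 0 (0.0%) passed the call rule of an adjusted p under 0.05 together with a fold change past 0.2 on the log2 scale. The smallest Benjamini-Hochberg adjusted p was 0.446. At an unadjusted p under 0.05 there were 159 genes, 70 higher in Het (2.49% of those tested) and 89 lower (3.16%). The 95% interval of the log2 fold change lay within 1 of 0 for 2592 genes (92.1%) and within 0.5 of 0 for 885. A 2-fold change was thus outside the interval for most genes. DESeq2 called 4 genes, all lower in Het, of 141 genes for which it gave an adjusted p (2.84%). The 4 were Erbb4, Ralyl, Cntnap2 and Cntn5. DESeq2 sets a minimum on mean counts before it adjusts, and without that step it called 0 of 2815 genes, with 0.215 as the smallest adjusted p and 120 genes at an unadjusted p under 0.05.

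**Figure D4:**
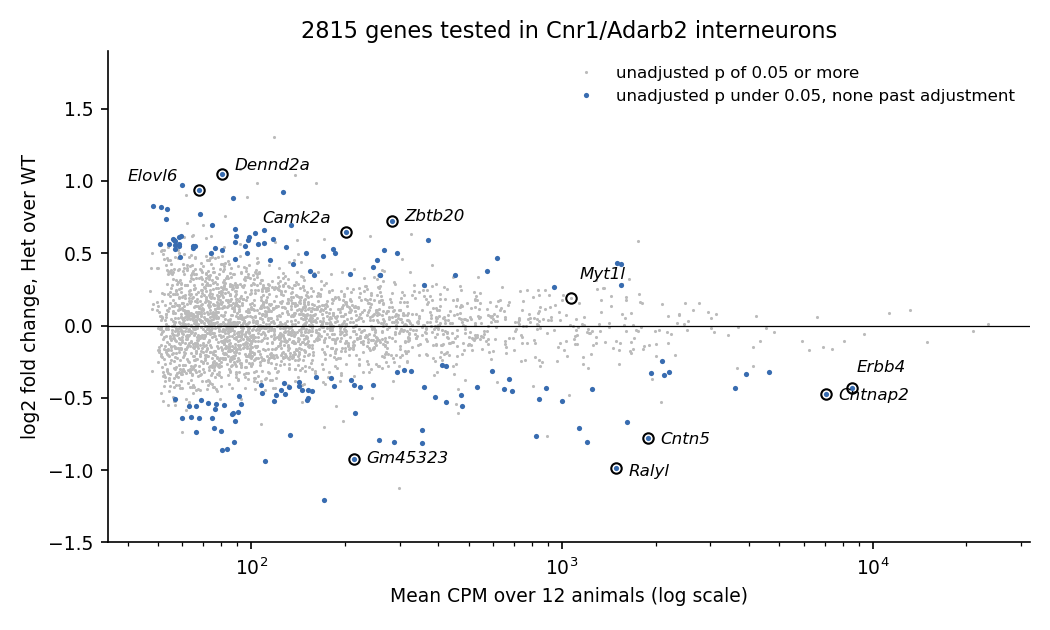
Log2 fold change of Het over WT (y axis) against the mean CPM over 12 animals (x axis, log scale) for 2815 genes, with the 159 genes at an unadjusted p under 0.05 in blue and named genes circled. None passed the adjusted threshold in edgeR, and Erbb4, Cntnap2, Cntn5 and Ralyl, called by DESeq2, lie below 0 at the high end of expression.

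Myt1l, the gene carrying the mutation, did not pass the test. Its levels in WT were 844 to 1121 CPM and in Het 987 to 1281 CPM, with means of 985 ± 117 and 1151 ± 99.8 (SD, n = 6 each). The log2 fold change was 0.19 ± 0.13 (SE; edgeR adjusted p = 0.930), with a 95% interval from -0.07 to 0.45, and 0.41 with at least 8 Cnr1 UMIs (edgeR adjusted p = 0.649). These counts do not tell the frameshift allele from the normal one, so they do not check the genotype labels. Myt1 and St18, its relatives, had 39 and 21.9 counts over all members and were not tested.

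Each of the 4 genes that DESeq2 called is described in turn. Erbb4, the neuregulin receptor that steers the migration and the input synapses of interneurons, lies on chromosome 1 (68032186 to 69108059, GRCm38/mm10). Its level in the WT animals was 9434, 9940, 8578, 12560, 8312 and 9566 CPM, and in the Het animals 7731, 6276, 7919, 8182, 5613 and 8442 CPM. The groups overlapped only between the lowest WT animal and the highest Het animal. The log2 fold change was -0.43 ± 0.13 (SE; edgeR adjusted p = 0.583, DESeq2 adjusted p = 0.0493). It was -0.25 with no limits on the UMIs of a nucleus.

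Cntnap2, a neurexin relative that gathers potassium channels along axons, lies on chromosome 6 (45059357 to 47304213). It was at 7741, 7989, 7956, 9708, 7653 and 7508 CPM in WT and at 5188, 4904, 6810, 6023, 4691 and 8162 CPM in Het. In 5 of 6 Het animals it was below every WT animal, and Het female 3 was above 5 of the 6. The log2 fold change was -0.47 ± 0.13 (edgeR adjusted p = 0.527, DESeq2 adjusted p = 0.0493), and -0.27 with nuclei of at least 3 Cnr1 UMIs. Ralyl, an RNA-binding protein gene on chromosome 3 (13471655 to 14182287), had the largest difference of the 4. It ranged from 1460 to 2749 CPM in WT and from 621 to 1788 CPM in Het, where again only Het female 3 reached the WT range. The log2 fold change was -0.99 ± 0.25 (edgeR adjusted p = 0.527, DESeq2 adjusted p = 0.0127). Without Het female 3, Ralyl passed in edgeR too, at -1.23 (adjusted p = 0.00928). Cntn5, a contactin of the cell surface on chromosome 9 (9660891 to 10904775), was at 1466 to 3577 CPM in WT and 771 to 1812 CPM in Het (-0.78 ± 0.23, edgeR adjusted p = 0.671, DESeq2 adjusted p = 0.0493). Cntn5 is also on the list of genes already singled out from these animals (below), so it is not an independent pick.

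The share of nuclei with the glutamate transporter was set beside these genes. The share of members with a Slc17a8 UMI was 9.67% ± 8.08 in WT and 15.1% ± 5.49 in Het (exact permutation p = 0.195, n = 6 each, looked at after the gene levels). It ran from 0.0% to 21.2% in WT and from 6.25% to 21.3% in Het. Nuclei with Slc17a8 were low in Erbb4, Cntnap2 and Cntn5, as given above. With those nuclei left out, the log2 fold changes were -0.41 for Erbb4, -0.48 for Cntnap2, -0.98 for Ralyl and -0.72 for Cntn5. With them they were -0.43, -0.47, -0.99 and -0.78. The nuclei left hold an unknown number of the same kind, so the part of that kind in these differences was not tested. With the Slc17a8 nuclei left out, DESeq2 called 0 of 2491 genes (99 at an unadjusted p under 0.05), and edgeR 0 (129). That fit adjusted over all 2491 genes, so its count compares with the 0 of 2815 and not with the 4 of 141. With members of at least 20 Adarb2 UMIs, the log2 fold changes were -0.38, -0.51, -0.97 and -0.76. There DESeq2 called 7 of the 131 genes it gave an adjusted p, all lower in Het, adding Lingo2, Kcnd2 and Nrg1. In the same nuclei edgeR called 0 of 2605 (146 at an unadjusted p under 0.05).

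Of the genes higher in Het, Zbtb20 had the smallest unadjusted p. It encodes a zinc finger repressor of hippocampal neurons and astrocytes and lies on chromosome 16 (42875881 to 43642602). WT animals were at 187, 323, 197, 169, 219 and 160 CPM and Het animals at 358, 314, 387, 333, 414 and 332 CPM. All Het animals but 1 were above every WT animal, and WT male 2 was the single WT animal in the Het range. The log2 fold change was 0.72 ± 0.16 (edgeR adjusted p = 0.446), and it passed without WT male 2, at 0.91 (adjusted p = 0.00837). It was 0.29 with nuclei of at least 3 Cnr1 UMIs (edgeR adjusted p = 0.955) and 0.20 with at least 8 (0.945, on the 3 WT and 6 Het animals with at least 10 such nuclei). Astrocyte markers overlapped between the genotypes, at 75.5 to 180 CPM in WT and 96.0 to 167 CPM in Het. In members with at least 20 Adarb2 UMIs, Slc1a2 made up 137 of the 146 CPM of these markers. It was found in 52.2% of those nuclei, so the sum does not measure astrocyte RNA alone. Whether astrocyte RNA enters the Zbtb20 counts was not tested.

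Dennd2a, a regulator of Rab GTPases, was at 35.5 to 77.7 CPM in WT and 73.2 to 149 CPM in Het (1.05 ± 0.25, edgeR adjusted p = 0.446). Elovl6, a fatty acid elongase, was at 32.4 to 53.3 CPM and 63.4 to 131 CPM, and Ptprn, a dense-core vesicle protein, at 51.8 to 125 CPM and 141 to 195 CPM. Both were higher in every Het animal than in any WT animal. This held for 6 of the 2815 genes, with none in the other direction (0.213% in all). That share is near 0.0022, the smallest two-sided exact permutation p that 6 against 6 animals can give. The count is thus about what a relabelling of the animals would give. Camk2a, a kinase of excitatory synapses, was at 91.5 to 203 CPM in WT and 189 to 285 CPM in Het (0.65 ± 0.18, edgeR adjusted p = 0.527). Lower in Het were Gm45323, a gene model of unknown function (168 to 420 CPM in WT, 83.7 to 177 CPM in Het), the Notch coactivator Maml2 (80.0 to 175 CPM, 33.4 to 132 CPM) and the vesicle coat gene Sec24a (83.1 to 142 CPM, 36.0 to 90.6 CPM). Their log2 fold changes were -0.92, -0.94 and -0.81, and none passed the adjustment. With nuclei of at least 3 Cnr1 UMIs, Maml2 was at -0.57, Sec24a at -0.45 and Camk2a at 0.40. With no limits on UMIs, Gm45323 was at -0.52 and Elovl6 at 0.61. With at least 8 Cnr1 UMIs, Dennd2a was at 1.88, Camk2a at 0.30 and Gm45323 at -0.40.

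**Figure D5:**
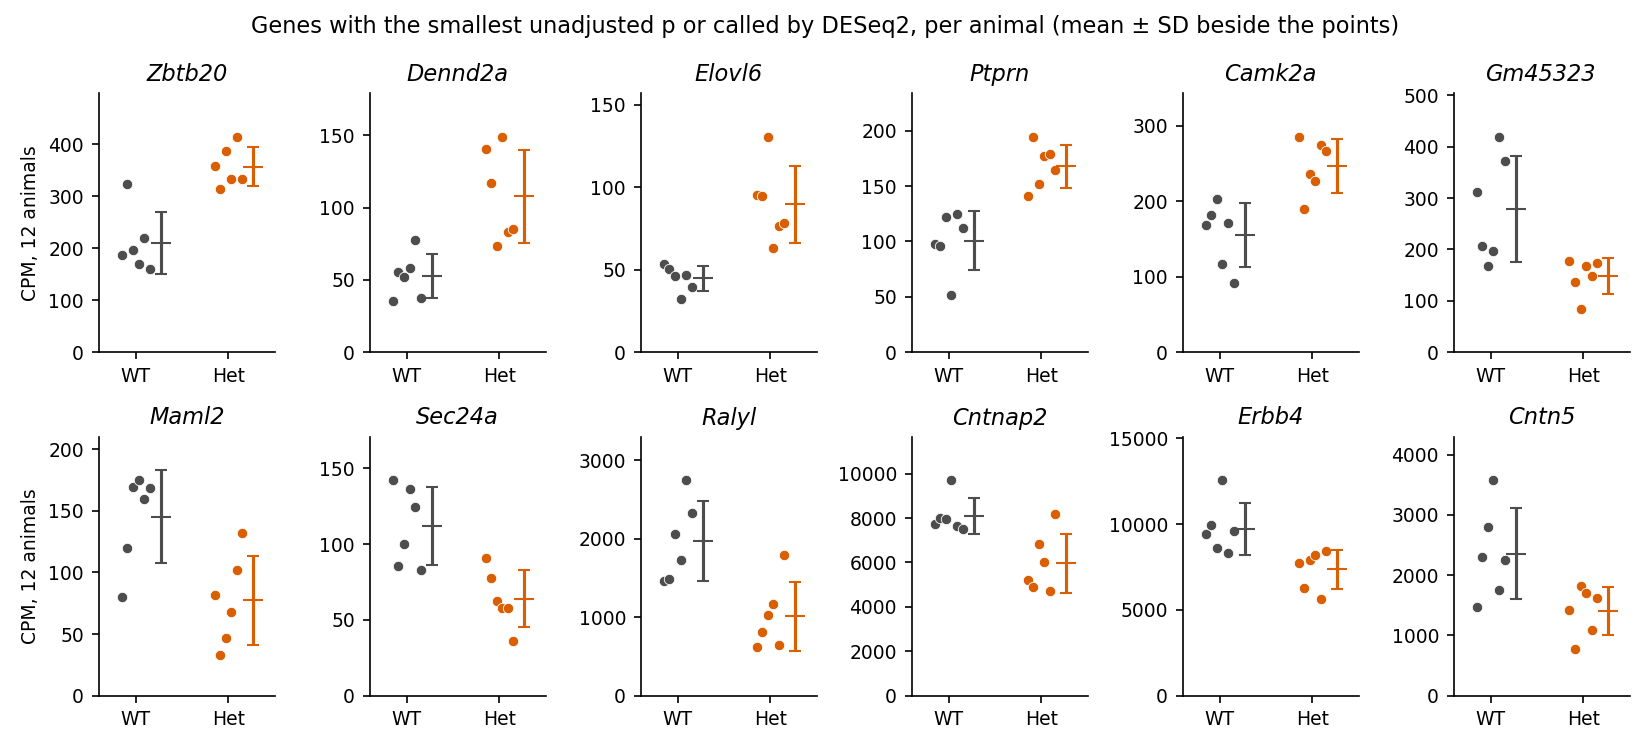
CPM per animal of 12 genes in the Cnr1/Adarb2 interneurons of WT and Het mice, 6 animals each, with the mean ± SD beside the points. Elovl6 and Ptprn do not overlap between the genotypes, and in Ralyl and Cntnap2 a single Het animal reaches the WT range.

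In edgeR no gene of the lists passed the threshold in either direction, with adjusted p of 0.527 or more throughout. Of the genes DESeq2 called, Erbb4, Cntnap2 and Cntn5 are on the adhesion list. Over all genes tested the median log2 fold change was -0.00, with 1399 above 0 and 1416 below. Of 38 adhesion genes tested, 6 had an unadjusted p under 0.05, all lower in Het, namely Cntnap2, Erbb4, Cntn5, Tenm3, Cntn3 and Tenm1. Over all 2815 genes 3.16% were lower and 2.49% higher at that level, which is also the background for the lists that follow. The median of the adhesion list was 0.01, with 21 genes above 0 and 17 below. Tenm3, a teneurin, was 1 of the 6 at -0.52 ± 0.19, and its highest WT animal, WT female 2, was at 1988 CPM with the next at 1136 CPM. Without that animal Tenm3 was at -0.31, with no limits on UMIs at -0.32, and with at least 8 Cnr1 UMIs its direction turned, at 0.093. Cntn3 was at -0.73 ± 0.25 and at -0.47 with at least 3 Cnr1 UMIs, and Tenm1 at -0.31 ± 0.14, at -0.17 with at least 8 Cnr1 UMIs and at -0.21 without WT male 2. Of 18 potassium and HCN channel genes tested, Kcnj6 (0.50 ± 0.17) and Kcnb2 (0.35 ± 0.15) were higher at an unadjusted p under 0.05, and the list's median was 0.05. Kcnb2 turned to -0.0057 with at least 3 Cnr1 UMIs and was at 0.20 with no limits on UMIs, and Kcnj6 was at 0.33 without the Slc17a8 nuclei. Of 18 release genes tested, Cplx2 (0.62 ± 0.22) and Unc13a (0.46 ± 0.19) were higher and Rims1 (-0.24 ± 0.12) lower, with a median of -0.01. Cplx2 was at 0.33 with at least 8 Cnr1 UMIs, and Unc13a at 0.71 there and at 0.30 with no limits.

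Of 18 glutamate receptor genes tested, Grik2 alone had an unadjusted p under 0.05 (-0.32 ± 0.13), and the list's median was 0.04. Grik2 was at -0.16 with no limits on UMIs and at -0.51 with at least 8 Cnr1 UMIs. The median of 12 GABA receptor genes tested was -0.04. Of 5 tested receptors for serotonin, acetylcholine and peptides, Chrna7 was at -0.48 ± 0.22, with 4 of the 5 below 0. It was at -0.23 with no limits and at -0.72 with at least 8 Cnr1 UMIs. None of the 6 endocannabinoid, 6 GABA handling, 8 transcription factor and 4 identity genes tested had an unadjusted p under 0.05. Mgll was at 0.28 ± 0.21, Plcb1 at -0.01 ± 0.17, Npas1 at 0.25 ± 0.19 and Reln at -0.20 ± 0.28. Slc17a8 was at 0.90 ± 0.68, from 0 to 91.5 CPM in WT and up to 183 CPM in Het, with a 95% interval of the log2 fold change from -0.58 to 2.39. Cck, at 32.6 ± 16.9 CPM in WT and 30.7 ± 16.9 CPM in Het (SD, n = 6 each), was below the count filter. Cnr1, which chose the members, was at 0.17 ± 0.14.

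Of 5 genes of immature neurons tested, Stmn2, a microtubule destabilizer of growing axons, was at -0.47 ± 0.20 with an unadjusted p under 0.05 (-0.21 with no limits on UMIs), and Dcx at -0.09 ± 0.18. The list's median was 0.04. The last list held 24 genes named at this age in the publication, of which 14 could be tested. It mixes genes named for opposite directions, so its median of -0.18, with 10 of the 14 below 0, has no direction to be read. Cntn5 and Rims1 were lower and the glycine receptor gene Glra2 higher (0.61 ± 0.29) at an unadjusted p under 0.05. The publication names Cntn5, Glra2 and Rim1 (read here as Rims1) among genes higher in WT, so Glra2 went the other way here. The calls in the publication at this age lay primarily in excitatory neurons. That list was chosen on these animals and is no independent evidence of a direction.

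Differences in the members were set beside those in neighbouring interneurons of the same animals. In Vip nuclei, fitted the same way with 5 WT and 6 Het animals that had at least 10 nuclei, edgeR called 0 of 2610 genes (125 at an unadjusted p under 0.05). There, Erbb4 was at -0.10 ± 0.11, Cntnap2 at 0.17 ± 0.13, Cntn5 at -0.15 ± 0.14, Zbtb20 at 0.27 ± 0.20 and Ralyl at -0.83 ± 0.44. The genotype difference was compared between members and Vip or Lamp5 nuclei for the 12 genes above, by an exact permutation over the 12 animals of log2(CPM + 1), in 24 tests. It differed from that in Vip nuclei, at a Benjamini-Hochberg adjusted p under 0.05, for Dennd2a (1.10 higher), Elovl6 (1.14 higher), Maml2 (-1.12) and Sec24a (-1.20). Against Lamp5 nuclei it differed for Maml2 (-3.87, adjusted p = 0.0390 by the exact permutation). Most of that lay in the Lamp5 nuclei, where Het minus WT was 2.88 on the log2 scale, against -0.99 in the members. Against Vip nuclei the difference was -0.68 for Cntnap2 (exact permutation, adjusted p = 0.0519), -0.32 for Erbb4 (0.139) and -0.45 for Ralyl (0.508). Against Lamp5 nuclei it was 0.025 for Cntnap2 (exact permutation, adjusted p = 0.998), -0.18 for Erbb4 (0.522) and -3.44 for Ralyl (0.0935). The genes were chosen for their difference in the members, which enters this test, so these p-values are not independent evidence. Leaving out any 1 of Het male 2, Het male 3, Het female 1, Het female 2 or Het female 3 left no call. Lamp5 nuclei numbered 2 to 8 per animal, so their levels rest on very few nuclei. In them Het minus WT was also 3.59 for Gm45323 and 2.41 for Ralyl. The 12 animals compared with Vip nuclei included WT male 1, with 7 Vip nuclei, which the Vip fit left out.

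The genotype difference was also compared between the sexes. The interaction of sex and genotype passed for 0 of 2815 genes in edgeR (117 at an unadjusted p under 0.05) and for 0 in DESeq2 (50). Without the filter on low counts 8 of 21641 genes passed, among them Prox1, Nrg1 and Pde1a.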

How the data were processed

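Single-nucleus RNA-seq of P21 mouse cortex was taken from 12 deposited gene-by-barcode matrices of 55335 genes (78743 barcodes). E14 and P1 samples were not analysed here. The values are expected counts: the authors mapped reads to mm10 with the vendor's pipeline, which splits some reads between genes, and 92.6% of the entries were whole numbers. The submitters' notes name Seurat 4.3.0 and DESeq2 1.38.3. Barcodes over 12000 UMIs or 1% mitochondrial UMIs were dropped, and no doublet caller was run. The members and gene lists were chosen with earlier results of these data known.

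Estimated counts were summed per animal (112523 to 362567 UMIs) and rounded to whole numbers. Genes passing filterByExpr were tested with edgeR 4.0.16 (R 4.3.3; TMM, quasi-likelihood, all 12 animals, genotype only, Benjamini-Hochberg over all genes tested). DESeq2 1.42.0 was an alternative. The steps were tested on simulated data. Shares and summed levels were compared by two-sided exact permutation over animals (scipy 1.17.1). Intervals of shares of nuclei are exact (Clopper-Pearson, 95%) and cover counting error only. For a count of 0 the limit given is that of 3 counts. CPM is not scaled by length, so levels are not compared between genes. Coordinates are from GENCODE (GRCm38/mm10), matched for 54587 of 55335 gene identifiers.

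Named genes were the genes of the rule, Myt1l and its relatives, the genes the publication names at this age, the 5 smallest unadjusted p in each direction and those called by DESeq2, the 4 highest members of each list plus any at an unadjusted p under 0.05, and the 15 leading genes by ratio. Other genes named were chosen after their values were seen. Alternatives left out each animal, moved the Cnr1 and Adarb2 minima, limits and filters, changed the tool, normalization and terms, and thinned nuclei. Those on Adarb2, on Slc17a8, on a shorter list of markers for mixed nuclei, on dropping the limits and on the DESeq2 count filter were chosen after seeing the data. Each animal is 1 sample, told apart by its barcodes after nuclei of all animals were pooled. P-values measure the spread between animals, which includes the counting error of few nuclei per animal. Some genes of the lists are not reported here.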

Additional observations from a re-analysis of the deposited data

Results flagged for a closer look

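In 78 groups of 6 animals, 4 values lay far from the other 5 animals of their group by Dixon's test, a rate that chance gives in about 1 in 20 groups. Zbtb20 was at 323 CPM in WT male 2, where the next WT animal was at 219 CPM. Cntnap2 was at 9708 CPM in WT female 1, with the next at 7989 CPM. Rims1 was at 1630 CPM in Het female 2, below the next Het animal at 1933 CPM. Tenm3 was at 1988 CPM in WT female 2, with the next at 1136 CPM.

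Transcripts of the injected tdTomato reporter, outside the measurements above, were found in 163 of 326 members, in members of all 12 animals. They amounted to 62.2 to 324 CPM in WT (median 210 CPM) and 32.0 to 299 CPM in Het (median 180 CPM), and the genotypes overlapped.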

How the results depend on the processing

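The number of nuclei limits precision, as an animal gave 17 to 47 members, and the median 95% interval of a log2 fold change reached 0.439 to either side. The edgeR count of 0 genes held with DESeq2 size factors, sex as a term, at least 3 Cnr1 or 20 Adarb2 UMIs, at least 8 Cnr1 UMIs (on 3 WT and 6 Het animals), no limits on nuclei, a shorter list of markers for mixed nuclei, or no Slc17a8 nuclei. It was 4 with DESeq2, 7 with DESeq2 at 20 or more Adarb2 UMIs, 5 without the filter on low counts (Ror1, Dennd2a, Gm45323, Tmtc2 and Zbtb20) and 0 to 2 with 1 animal left out (2 without WT male 2, Tmtc2 and Zbtb20, and 1 without Het female 3, Ralyl). The sex interaction gave 8 without that filter. The comparison with Vip and Lamp5 nuclei gave 0 to 6 differences with 1 animal left out. With the replicate block, edgeR called 0 genes (smallest adjusted p 0.0705) and the paired shares differed by -0.029 points. Same-numbered animals correlated at -0.0967 to 0.135, within the -0.212 to 0.197 of all WT and Het pairs, so no pairing by number was seen. With so few nuclei per animal a pairing could be missed. The paper states that animals came from several litters and were generally littermates. The sample titles do not give the litter, so it was not modelled.

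The share of GABA nuclei (Het minus WT) was -0.431 points after thinning, -0.208 within the published limits, -0.175 with no limits, 0.263 in males alone, 0.1998 at 8 or more Cnr1 UMIs, and -0.250 to 0.166 with 1 animal left out. The share of kept nuclei was -0.0261 points within the published limits, -0.00171 without mixed nuclei by the first list, -0.0106 after thinning, and 0.00982 to 0.0599 with 1 animal left out. The median UMIs differed by -147 and -173 at 3 or 8 or more Cnr1 UMIs, and by 281 to 886 with 1 animal left out. The summed markers of other classes differed by 191 to 561 CPM with 1 animal left out. None of these passed, and the cause of the changes in sign was not tested. Of 700 log2 fold changes of 27 genes under 26 alternatives, 685 kept their direction and were not called. These include genes to which DESeq2 gave no adjusted p, which could not be called. It gave one to 141 of 2815 genes, and to 131 of 2605 with at least 20 Adarb2 UMIs. A further 13 were newly called and 2 changed sign, Kcnb2 at 3 or more Cnr1 UMIs (-0.0057) and Tenm3 at 8 or more (0.093). Many values moved by over 1.5 times, 8 of 27 at 3 or more Cnr1 UMIs, 11 at 8 or more and 10 with no limits. The published limits and the first list for mixed nuclei left too few members per animal for the gene fit, which was not run.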
